A study of Homo sapiens with 12 samples.

Results

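The genes described here are 10 enzymes of asparagine, serine, folate and proline synthesis, taken by symbol from the 20323 genes of the tables. They are ASNS for asparagine, PHGDH, PSAT1 and PSPH for serine, SHMT2, MTHFD2, MTHFD1L and ALDH1L2 for mitochondrial folate, and ALDH18A1 and PYCR1 for proline. Each symbol stood at 1 identifier, and all 10 were among the 12718 genes that passed the low-count filter. RNA was sequenced from cells labelled A549, an established human lung adenocarcinoma line, that had intact LKB1 (genotype label WT) or were LKB1-deficient (titled con). LKB1 is the kinase encoded by STK11 and an upstream activator of AMPK. Cells of each genotype received PBS as the control or high-dose AA, which the titles call VitC, and no dose or time is given. This makes 4 groups of 3 libraries: intact PBS, intact AA, deficient PBS and deficient AA. A549 is commonly reported to carry a mutant STK11, and how either genotype was made is not in the labels. No label says that the libraries of a group were separate cultures, so a p-value here reflects library-to-library spread that could be technical.

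Asparagine synthetase (ASNS) makes asparagine from aspartate and glutamine. The serine pathway draws a glycolytic intermediate through PHGDH, PSAT1 and PSPH to serine, and SHMT2 passes a carbon of serine to folate inside mitochondria. MTHFD2, MTHFD1L and ALDH1L2 oxidise or release that carbon as formate or carbon dioxide, while ALDH18A1 and PYCR1 open and close the route from glutamate to proline. Many of these genes are textbook targets of ATF4, a transcription factor of the amino acid response that binds C/EBP-ATF composite elements.

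Sequence before the start site was read for the members because they are often described as sharing that element. RefSeq windows (GRCh38.p14) of 250 bases upstream were held for 6 of the 10: ASNS, PHGDH, PSAT1, MTHFD2, MTHFD1L and ALDH18A1. The composite core TGATGNAA, searched on both strands, stood in 2 of these 6, against 3.14% of 35116 upstream windows of all genes in the table. Only the first listed window of a gene was read, of 2 for ASNS and 4 for MTHFD1L, and their other windows were not searched. Counted in the same way, by the first window of each gene, the share was 3.19% of 27305 genes. ASNS had it 68 to 61 bases before the start (chr7:97872458-97872487, minus strand), and MTHFD1L 129 to 122 bases before (chr6:150866346-150866375, plus strand). Both 30-base stretches overlap an exon of the same gene in the GENCODE annotation, so only the match (capitals) and its flanks are given.
ASNS: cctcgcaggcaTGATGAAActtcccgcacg
MTHFD1L: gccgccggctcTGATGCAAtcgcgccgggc
The MTHFD1L match was also the only match of TTGCATCA, found in 0.772% of windows.

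A pair of windows without the core is shown for contrast: PSAT1, which rose under AA in deficient cells, and ALDH18A1, which fell. PSAT1 (chr9:78296875-78297124, plus strand) held 3 copies of CCAAT, in capitals. PHGDH and MTHFD1L had 1 each and MTHFD2 had 2, and 32.0% of all windows hold at least 1. ALDH18A1 (chr10:95656712-95656961, minus strand) held the E-box CACGTG, in capitals, as did MTHFD1L, against 6.35% of all windows. A match describes the letters and is not evidence of binding.
PSAT1: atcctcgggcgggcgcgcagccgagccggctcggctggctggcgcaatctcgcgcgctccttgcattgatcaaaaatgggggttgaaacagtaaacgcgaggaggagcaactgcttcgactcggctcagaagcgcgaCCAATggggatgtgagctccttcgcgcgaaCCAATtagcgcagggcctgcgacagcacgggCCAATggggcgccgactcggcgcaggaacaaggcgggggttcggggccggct
ALDH18A1: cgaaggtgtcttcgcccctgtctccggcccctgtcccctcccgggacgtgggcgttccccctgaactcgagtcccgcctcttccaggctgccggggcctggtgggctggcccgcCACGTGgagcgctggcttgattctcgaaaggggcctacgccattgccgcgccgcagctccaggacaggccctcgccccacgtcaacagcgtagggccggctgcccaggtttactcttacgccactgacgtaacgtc

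Estimated counts summed to 16055534 to 20306129 per library. STK11, which checks the genotype labels, lay at 4.86 to 7.34 CPM (counts scaled to a common depth with TMM factors) in the 6 deficient libraries and at 23.6 to 28.2 CPM in the 6 intact ones. The data went against the cell line label at CDKN2A, which is widely described as deleted in A549 and was present at 57.9 to 113 CPM in every library. None of the 4 lung lineage markers (NKX2-1, SFTPB, SFTPC, NAPSA) passed the filter. KRT19, a keratin of simple epithelia, reached at most 0.389 FPKM (fragments scaled by length and depth), while KRT8 lay at 434 to 1116 and KRT18 at 484 to 1007 FPKM. The cells are therefore called by their label only. Markers of fibroblasts and, except CD68 at 56.9 to 79.5 FPKM, of leukocytes were at or near 0. The 5 epithelial markers summed to 1314 to 1361 FPKM in intact PBS, 2061 to 2128 in intact AA, 1168 to 1277 in deficient PBS and 1169 to 1199 in deficient AA. Within that sum, KRT8 and KRT18 moved in opposite directions in deficient cells. Mean KRT8 was 705.5 FPKM in deficient PBS and 445.2 in deficient AA, and mean KRT18 was 519.8 and 729.7. The endothelial list, made up almost wholly of CDH5, summed to 2.90 to 3.02 FPKM in intact PBS, 1.19 to 1.32 in intact AA, 1.87 to 2.69 in deficient PBS and 0.216 to 0.551 in deficient AA. The part of these lists in the results was not tested.

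Under AA, LKB1-deficient cells had more RNA of 9 of the 10 genes than under PBS, and less of ALDH18A1. ASNS rose most, 6.3-fold, followed by PSPH at 5.0-fold and PSAT1 at 3.0-fold. In LKB1-intact cells the same treatment moved no member by more than 1.5-fold, and 4 of them fell. In bulk RNA, fewer cells of a kind and less RNA per cell cannot be told apart. Both responses are given below by role.

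**Figure D1:**
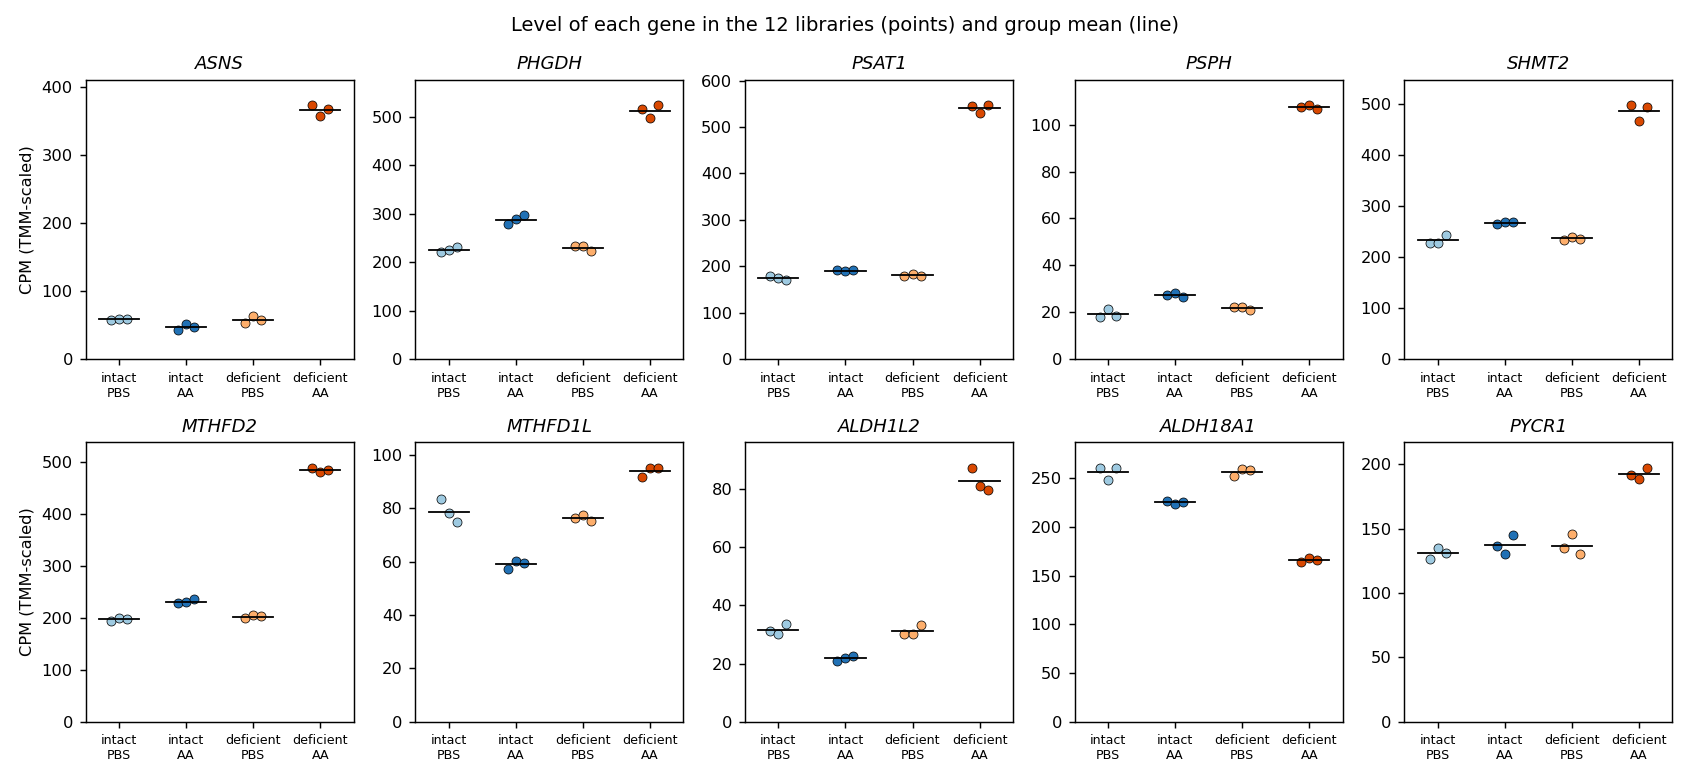
Level of each of the 10 genes in CPM (TMM-scaled, linear axis from 0) in every library, by group, with points for libraries and a line for the group mean. The 3 deficient AA libraries stand above the other 9 in every panel but ALDH18A1, where they stand below.

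ASNS (ENSG00000070669, chr7:97852118-97872542, minus strand, GRCh38) had 57.3, 58.8 and 58.8 CPM in intact PBS and 42.7, 51.8 and 47.3 in intact AA. It had 52.7, 63.5 and 57.3 CPM in deficient PBS and 374, 358 and 368 in deficient AA. The deficient AA libraries thus lay far above every other library, and the intact AA libraries lay below both PBS groups. The log2 change under AA was 2.66 in deficient cells (SE 0.0544, adjusted p = 3.14e-20, edgeR's quasi-likelihood test with Benjamini-Hochberg adjustment over all genes, as for every adjusted p of these comparisons). This was rank 85 of 12718 genes from the highest. In intact cells it fell by 0.30 on the log2 scale (SE 0.0623, adjusted p = 0.000185). That fall was not called on FPKM (-0.15, adjusted p = 0.0871 with limma on log2(FPKM + 1)), where the intact AA libraries at 25.2, 32.8 and 29.5 FPKM overlapped the intact PBS ones at 31.6, 32.9 and 32.6. The length by which the authors' FPKM divides the ASNS count was 1609 ± 60.9 bases (SD, n = 3) in intact AA and 1781 ± 14.9 in intact PBS.

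The serine genes rose together in both genotypes, and far more in deficient cells. PHGDH (ENSG00000092621, chr1:119648411-119744226, plus strand), the first enzyme of the pathway, ran from 221 to 231 CPM in intact PBS, 279 to 296 in intact AA, 223 to 234 in deficient PBS and 498 to 524 in deficient AA. Its log2 change was 1.16 in deficient cells (SE 0.0324, adjusted p = 4.72e-18) and 0.35 in intact cells (SE 0.0328, adjusted p = 4.47e-09). The PHGDH ranges of AA and PBS did not meet in either genotype.

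PSAT1 (ENSG00000135069, chr9:78297143-78330093, plus strand), the aminotransferase of the second step, had 178, 174 and 171 CPM in intact PBS, 191, 189 and 191 in intact AA, 179, 184 and 179 in deficient PBS and 546, 531 and 547 in deficient AA. Its rise in intact cells was the smallest that passed among the members, at 0.13 (SE 0.03, adjusted p = 0.000682). Its rise in deficient cells was 1.59 (SE 0.0292) and had the lowest adjusted p of the 10 in that comparison, 6.4e-21. PSPH (ENSG00000146733, chr7:56011051-56051604, minus strand), the phosphatase that releases serine, had 17.8, 21.3 and 18.4 CPM in intact PBS, 27.5, 28.2 and 26.6 in intact AA, 22.1, 22.2 and 20.8 in deficient PBS, and 107, 108 and 107 in deficient AA. PSPH was the least abundant of the serine genes per length and changed most, by 2.31 in deficient cells (SE 0.0577, adjusted p = 6.31e-19) and by 0.51 in intact cells (SE 0.0663, adjusted p = 5.97e-07).

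The mitochondrial folate genes split into 2 pairs. SHMT2 (ENSG00000182199, chr12:57229327-57234935, plus strand), which takes the carbon from serine, ran from 228 to 244 CPM in intact PBS, 266 to 269 in intact AA, 234 to 240 in deficient PBS and 467 to 498 in deficient AA. MTHFD2 (ENSG00000065911, chr2:74198562-74217565, plus strand), the dehydrogenase and cyclohydrolase of the next step, ran from 194 to 200, 228 to 236, 200 to 205 and 482 to 489 CPM in the same order. Both rose in both genotypes without overlap of the libraries. SHMT2 rose by 1.04 in deficient cells (SE 0.0328, adjusted p = 3.31e-17) and by 0.20 in intact cells (SE 0.0333, adjusted p = 1.58e-05). MTHFD2 rose by 1.26 (SE 0.0283, adjusted p = 1.18e-19) and by 0.23 (SE 0.0289, adjusted p = 4.88e-07).

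MTHFD1L and ALDH1L2 moved in opposite directions in the genotypes. MTHFD1L (ENSG00000120254, chr6:150865549-151101887, plus strand), the synthetase that frees formate, had 83.4, 78.4 and 74.8 CPM in intact PBS, 57.4, 60.4 and 59.6 in intact AA, 76.3, 77.5 and 75.4 in deficient PBS, and 91.7, 95.1 and 95.3 in deficient AA. It fell by 0.41 on the log2 scale in intact cells (SE 0.0451, adjusted p = 4.7e-08) and rose by 0.30 in deficient cells (SE 0.0433, adjusted p = 2.18e-06). ALDH1L2 (ENSG00000136010, chr12:105019784-105084577, minus strand), which burns formyl folate to carbon dioxide while reducing NADP, had 31.3, 30 and 33.5 CPM in intact PBS and 21.0, 22.0 and 22.6 in intact AA. It had 30.3, 30.1 and 33.3 CPM in deficient PBS and 87.2, 80.8 and 79.6 in deficient AA. The intact AA libraries were the lowest 3 of the 12 and the deficient AA libraries the highest 3 for both genes. ALDH1L2 fell by 0.53 in intact cells (SE 0.0667, adjusted p = 3.9e-07) and rose by 1.40 in deficient cells (SE 0.0584, adjusted p = 3.63e-15). With the trend on gene length removed, the ALDH1L2 changes were -0.19 and 1.85.

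The proline genes went apart in deficient cells. ALDH18A1 (ENSG00000059573, chr10:95605929-95656706, minus strand), the synthase of the first step from glutamate, had 261, 249 and 260 CPM in intact PBS, 227, 224 and 226 in intact AA, 253, 260 and 259 in deficient PBS, and 164, 168 and 166 in deficient AA. It was the only member lower under AA in both genotypes, by 0.63 in deficient cells (SE 0.0306, adjusted p = 4.68e-14) and by 0.19 in intact cells (SE 0.03, adjusted p = 1.24e-05) on the log2 scale. PYCR1 (ENSG00000183010, chr17:81932384-81942412, minus strand), the mitochondrial reductase of the last step, had 127, 135 and 131 CPM in intact PBS, 137, 131 and 145 in intact AA, 135, 146 and 130 in deficient PBS, and 191, 189 and 197 in deficient AA. PYCR1 rose by 0.49 in deficient cells (SE 0.0433, adjusted p = 1.01e-09), and by 0.15 with the length trend removed (adjusted p = 0.00343). In intact cells the AA and PBS libraries of PYCR1 overlapped, and the change of 0.07 was not called (SE 0.0442, adjusted p = 0.158). That call was gained with upper quartile factors (0.13, adjusted p = 0.013), without the second intact AA library (0.11, adjusted p = 0.0489), and with the opposite sign once the length trend was removed (-0.17, adjusted p = 0.00116).

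**Figure D2:**
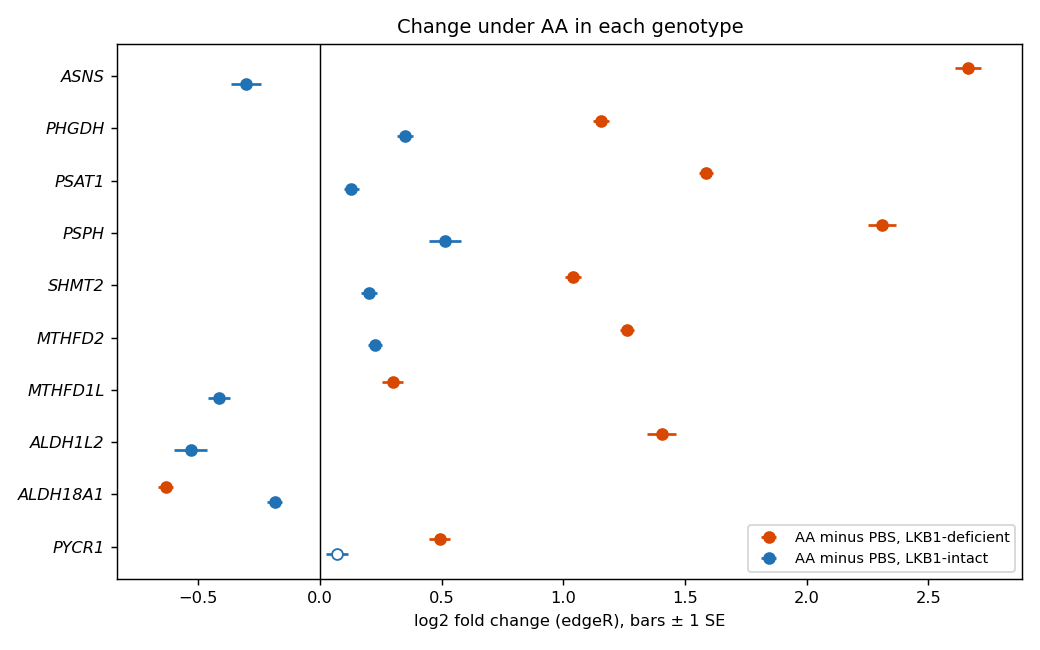
Log2 fold change under AA against PBS for each gene in deficient (orange) and intact (blue) cells, from edgeR, with bars of 1 SE either side and an open point where the adjusted p was not under 0.05. Deficient cells range from -0.63 (ALDH18A1) to 2.66 (ASNS), intact cells from -0.53 (ALDH1L2) to 0.51 (PSPH).

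These counts stand against a response of most genes. In deficient cells 9 of the 10 were called higher, where 37.0% of all tested genes were, and 1 was called lower, where 37.4% were. A rise of at least 1 on the log2 scale was seen for 7 of the 10, against 6.70% of all tested genes. With the length trend removed, PHGDH (0.99) and SHMT2 (0.91) fell short of that size. The median change of the 10 was 1.21, beside 0.01 over all genes. In intact cells 5 were called higher against 34.5% of all genes and 4 lower against 35.2%, shares near the background, and the median was 0.10, beside 0.01 over all genes. In intact cells 0 of the 10 changed by 1 or more in either direction, against 10.1% of all genes. Removing the length trend kept every called direction in intact cells, with PSPH at 0.29, MTHFD2 at 0.09, SHMT2 at 0.12, PSAT1 at 0.08 and ALDH18A1 at -0.10.

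The AA effect differed between the genotypes for all 10 genes in the test of the difference itself (deficient minus intact). It was higher in deficient cells for 9, where 21.6% of all genes were called, and lower for ALDH18A1, where 23.0% were. A difference of at least 1 held for ASNS, ALDH1L2, PSPH, PSAT1 and MTHFD2, 5 of 10 against 1.91% of all genes. With the length trend removed, MTHFD2 fell short of that size (0.98). ASNS differed by 2.97 (SE 0.0827, adjusted p = 9.81e-17), rank 19 of 12718. ALDH1L2 differed by 1.94 (SE 0.0887, adjusted p = 2.27e-13) and PSPH by 1.80 (SE 0.0893, adjusted p = 7.7e-13). The smallest differences were those of the proline genes, 0.42 for PYCR1 (adjusted p = 9.07e-06) and -0.45 for ALDH18A1 (adjusted p = 2.54e-08). The median of the 10 was 0.94, beside -0.01 over all genes.

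No difference between the genotypes was called at these genes without AA. Under PBS 0 of the 10 were called with edgeR, where 0.275% of all genes were, and 0 were called with DESeq2. At an unadjusted p under 0.05 there was 1, against 8.45% of all genes: PSPH, higher by 0.17 in deficient cells (SE 0.0699, adjusted p = 0.48). PSAT1 was the only one whose libraries did not overlap, which held for 13.4% of all genes, with a difference of 0.05 (adjusted p = 0.69). The other 8 differed by -0.04 (MTHFD1L) to 0.06 (PYCR1) on the log2 scale. Under AA, 9 were higher in deficient than in intact cells against 28.7% of all genes, and ALDH18A1 was lower against 30.3%. Of these, 5 were higher by at least 1 on the log2 scale, against 2.19% of all genes, and ASNS, higher by 2.96 (SE 0.055, adjusted p = 3.24e-20), had rank 12 of 12718. The comparisons under AA share their libraries with those above.

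Per length, the order of the genes changed between the groups. In deficient PBS the highest were PHGDH at 124 ± 3.94 FPKM (SD, n = 3 here and below), SHMT2 at 120 ± 1.57, MTHFD2 at 117 ± 3.04 and PYCR1 at 111 ± 8.01, each of which overlapped the next in its range over the libraries. PSAT1 followed at 81.9 ± 0.963, ALDH18A1 at 76.0 ± 0.739, ASNS at 32.0 ± 1.85, MTHFD1L at 29.8 ± 2.03 (overlapping ASNS), PSPH at 16.2 ± 1.39 and ALDH1L2 at 4.27 ± 0.249. In deficient AA, MTHFD2 at 291 ± 1.76 and PHGDH at 288 ± 6.9 FPKM overlapped, as did PSAT1 at 256 ± 4.01 and SHMT2 at 245.0 ± 11.3 after them. ASNS reached 209 ± 6.84 FPKM and passed PYCR1 at 142 ± 2.35. PSPH at 87.9 ± 3.35 FPKM passed ALDH18A1 at 51.0 ± 0.796, which left MTHFD1L at 37.9 ± 2.96 and ALDH1L2 at 11.6 ± 0.429 as the lowest. In intact AA the order was led by PHGDH at 156 ± 4.21 FPKM, and ASNS stayed at 29.2 ± 3.81.

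Summed over the 10 genes, the level was 689 ± 9.36 FPKM in intact PBS, 748 ± 8.38 in intact AA, 713 ± 5.49 in deficient PBS and 1620 ± 25.9 in deficient AA. The FPKM of all genes also summed higher under AA (540836 to 560678) than under PBS (500366 to 514614). As a share of counts, which that sum does not touch, the 10 genes took 0.139%, 0.148%, 0.142% and 0.313% in the same order. By role, deficient cells went from 222 ± 4.94 to 632 ± 9.35 FPKM for serine and from 271 ± 3.34 to 585 ± 12.3 for folate. For proline, where 1 gene rose and 1 fell, the sums were 187 ± 7.94 and 193 ± 2.65 FPKM, within their spread. Their share of counts was 0.039% (0.0384 to 0.0400%) in deficient PBS and 0.0369% (0.0365 to 0.0375%) in deficient AA, without overlap.

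SHMT1, MTHFD1, MTHFD2L and PYCR3, counterparts of members, had smaller AA effects than those members in deficient cells, a contrast between genes that was not tested, while in intact cells those of SHMT1 and MTHFD1 were about as large as those of SHMT2 and MTHFD2 or larger. SHMT1, the cytosolic partner of SHMT2, rose by 0.33 in both genotypes (adjusted p = 1.62e-06 in deficient and 2.05e-06 in intact cells), and its AA effect did not pass the test of the difference (adjusted p = 0.998). MTHFD1, the cytosolic enzyme that carries the activities split between MTHFD2 and MTHFD1L, rose by 0.20 in deficient and 0.23 in intact cells (difference adjusted p = 0.64). MTHFD2L, the paralogue of MTHFD2, was not called in either genotype (-0.04 and -0.21, adjusted p = 0.871 and 0.356), at 2.38 to 4.10 CPM. ALDH1L1, the cytosolic form of ALDH1L2, had 0 CPM in every library and was not tested. PYCR3, which is cytosolic, was not called (-0.04 in deficient and 0.13 in intact cells, adjusted p = 0.657 and 0.199).

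The FPKM ratio of SHMT2 to SHMT1 was 3.74 ± 0.248 in intact PBS, 3.12 ± 0.256 in intact AA, 3.67 ± 0.272 in deficient PBS and 5.94 ± 0.417 in deficient AA. MTHFD1L over MTHFD1 was lowest in intact AA at 0.244 ± 0.00157, and was 0.354 ± 0.0135, 0.379 ± 0.0329 and 0.402 ± 0.0242 in intact PBS, deficient PBS and deficient AA. MTHFD2 over MTHFD1L was 4.03 ± 0.0259 in intact PBS, 5.83 ± 0.0696 in intact AA, 3.94 ± 0.318 in deficient PBS and 7.72 ± 0.665 in deficient AA. PYCR1 over ALDH18A1 was 1.42 ± 0.0913 in intact PBS, 1.61 ± 0.0309 in intact AA, 1.46 ± 0.108 in deficient PBS and 2.79 ± 0.0559 in deficient AA. Deficient AA thus had the highest mean of all 4 ratios, and only MTHFD1L over MTHFD1 overlapped another group there, deficient PBS. These ratios were not tested.

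**Figure D3:**
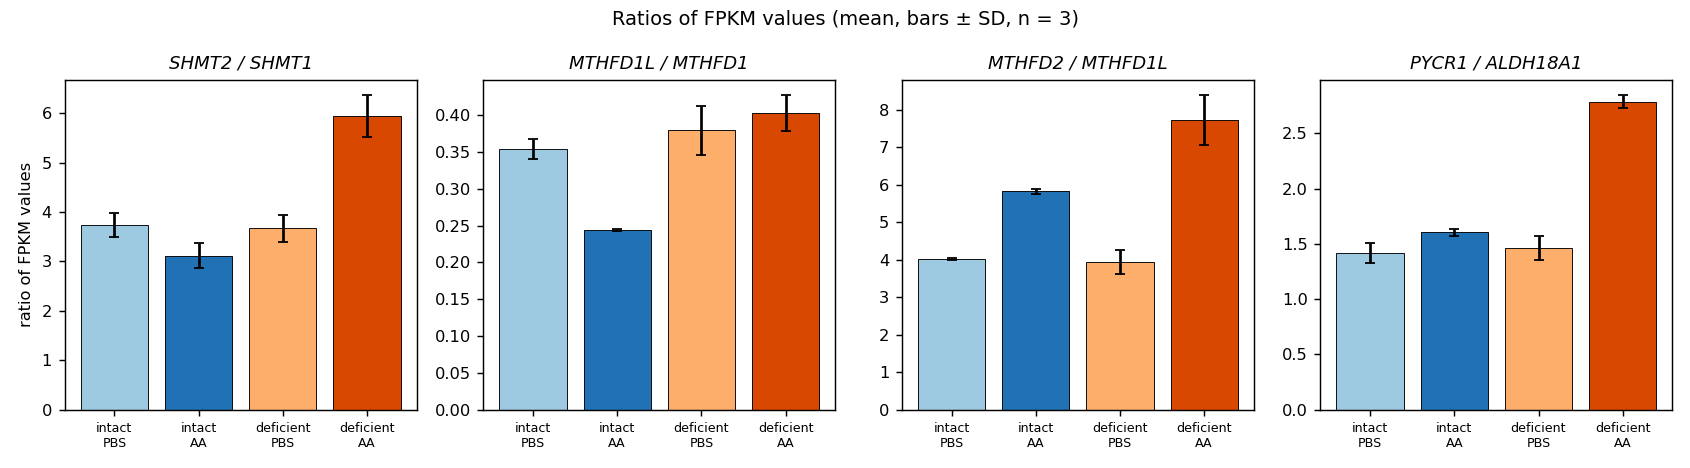
Ratios of FPKM values by group (bars from 0, mean of 3 libraries, error bars 1 SD). SHMT2 / SHMT1 reaches 5.94 and PYCR1 / ALDH18A1 2.79 in deficient AA, MTHFD1L / MTHFD1 is lowest in intact AA at 0.244, and MTHFD2 / MTHFD1L is above both PBS groups in intact AA (5.83) and deficient AA (7.72).

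Other genes of the same pathways, on lists without the 10, did not move as one. Over all tested genes, 37.0% were called higher and 37.4% lower under AA in deficient cells, and 34.5% and 35.2% in intact cells. Of 11 tested genes of asparagine and aspartate supply, 7 were higher and 2 lower under AA in deficient cells, and 7 and 1 in intact cells, with a median of 0.54 and 0.30. GOT1, which makes aspartate in the cytosol, rose by 1.44 in deficient and 0.30 in intact cells (difference 1.14, adjusted p = 4.22e-10), and NARS1, which charges tRNA with asparagine, rose by 0.72 in deficient cells. In intact cells NARS1 was not called (0.06, adjusted p = 0.11), though its AA and PBS libraries did not overlap and upper quartile factors gave a call (0.12, adjusted p = 0.00235). GLUL, glutamine synthetase, fell by 0.38 in deficient cells and rose by 0.42 in intact cells (difference -0.80, adjusted p = 9.56e-08).

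Of 13 tested genes around serine and glycine, 8 were higher and 3 lower in deficient cells and 7 and 3 in intact cells. Their medians were 0.47 and 0.15. Among the carriers on that list, SLC1A5, of neutral amino acids, rose by 0.91 in deficient cells and fell by 0.32 in intact cells (difference 1.23, adjusted p = 5.76e-14). SLC6A9, a glycine carrier, rose by 0.81 and fell by 0.64 (difference 1.44, adjusted p = 5.86e-11). SLC1A4, a carrier of alanine and serine, rose by 1.35 in deficient cells and was not called in intact cells (-0.07, adjusted p = 0.401). SFXN1, the mitochondrial serine carrier, fell in both, by 0.85 and 0.46 on the log2 scale. Of 18 folate cycle genes, 9 were higher and 7 lower in deficient cells and 7 and 5 in intact cells, with medians of 0.05 and 0.03. GART, of purine synthesis, rose by 0.55 in deficient cells and by 0.12 in intact cells (adjusted p = 0.0117). The intact call was lost on FPKM (0.07, adjusted p = 0.166) and without the first intact AA library (0.09, adjusted p = 0.0816). Of 11 genes of proline and ornithine, 6 were higher and 2 lower in deficient cells and 7 and 1 in intact cells, with medians of 0.26 and 0.15. OAT, which links ornithine to proline, fell by 0.46 in deficient cells and rose by 0.27 in intact cells (difference -0.73, adjusted p = 5.86e-11), and P4HA1, a prolyl hydroxylase subunit, rose by 0.64 in both.

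In the test of the difference between genotypes, 21.6% of all tested genes were called higher and 23.0% lower. Of the lists, asparagine and aspartate supply had 3 genes higher and 3 lower, and serine and glycine had 4 and 3. The folate cycle had 5 and 4, and proline and ornithine had 4 and 2. List medians of that difference ran from -0.08 for proline and ornithine to 0.10 for asparagine and aspartate supply, beside 0.94 for the 10 synthesis genes. Of 10 regulators of amino acid response genes, 8 were higher and 2 lower in that test, with a median of 0.72. ATF4 had 199 to 211 CPM across the 6 PBS libraries, 230.1 to 240.2 in intact AA and 328 to 333 in deficient AA. It rose by 0.67 in deficient cells (SE 0.0309, adjusted p = 1.9e-14) and by 0.17 in intact cells (SE 0.0312, adjusted p = 4.77e-05), a call lost with the length trend removed (-0.03, adjusted p = 0.45). TRIB3, a pseudokinase induced in this response, rose by 2.06 in deficient and 0.31 in intact cells. CEBPG, a partner of ATF4 on composite elements, rose by 1.23 in deficient cells and fell by 0.70 in intact cells (difference 1.94, adjusted p = 3.43e-15). Other regulators on the list fell in both genotypes. ATF5 fell by 1.66 in deficient and 1.28 in intact cells (adjusted p = 3.5e-13 and 3.02e-11), and MYC by 0.59 and 0.94. Under AA, 7 of the 10 regulators were higher and 3 lower in deficient cells, and 4 and 5 in intact cells. Under PBS, 0 of the 63 tested genes of these 5 lists were called between the genotypes with edgeR, and 8 had an unadjusted p under 0.05, beside 8.45% of all genes.

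**Figure D4:**
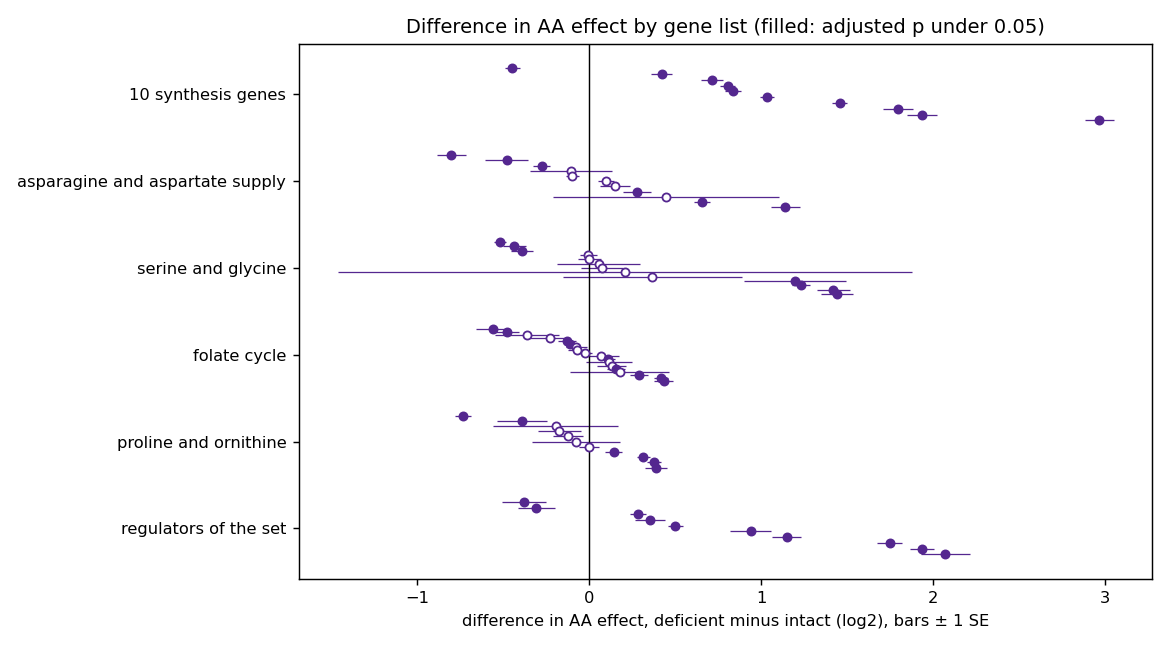
Difference in AA effect (deficient minus intact, log2, bars of 1 SE either side) for the 10 synthesis genes and 5 lists that hold none of them; filled points passed an adjusted p under 0.05. The 10 genes run from -0.45 to 2.97, each of the 4 pathway lists lies on both sides of 0 with medians from -0.08 to 0.10, and the regulators have a median of 0.72.

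The genes whose 4 group means were most like the mean of the 10 were sought among 9720 genes of mean log2 CPM of at least 3, by the root mean square difference of centred log2 values over the 4 groups. DUS4L was nearest at 0.04, followed by ZC3H8, SEPSECS, DTNBP1, CCDC59, ZFAND1, KIF21B and MARS1, the last at 0.07. Among the members themselves MTHFD2 lay nearest to their mean at 0.09 and ALDH18A1 farthest at 0.76, with ASNS at 0.70.

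Counting limits some members. MTHFD2 had fractional estimated counts in 10 of the 12 libraries and PYCR1 in 1, which marks reads shared with another feature, and the other 8 had whole counts throughout. Exons of SHMT2, MTHFD2, MTHFD1L, ALDH1L2 and PYCR1 overlap genes on the other strand in the annotation, those of ASNS and PYCR1 also a gene on their own strand, and how counting treated strand is not stated in any source used here, so reads of such neighbours cannot be told apart. Across members and libraries the lowest count was 283, for PSPH.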

How the data were processed

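RNA of 12 libraries in 4 groups of 3 was measured, grouped by the genotype and treatment labels. The authors deposited a table of estimated counts, of which 10.9 to 11.5% per library are not whole, and a table of FPKM values, scaled by length and depth. Per the submitters' processing notes, the tools were RSEM, StringTie 1.3.1, HISAT2 2.1.0, Bowtie2 2.2.8 and fastp 0.18.0, with roles, build and strand setting not given in the sources used here. Sharing of reads by an estimator makes near-identical genes uncertain.

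Counts were rounded and filtered by group (minimum count 10), which kept 12718 genes and 99.97% of counts in 12 libraries of 16055534 to 20306129. edgeR 4.0.16 in R 4.3.3 fitted 1 quasi-likelihood model with TMM factors (0.987 to 1.033) and no covariate to all libraries, for 5 comparisons, with calls at a Benjamini-Hochberg adjusted p under 0.05 over all genes. The standard error is the log2 change over the square root of F, and its median was 0.0706 for AA in deficient cells. log2 CPM used a prior count of 2. The fit was tested on simulated data. Replicates differed by more than sampling noise (chi-square per degree of freedom 1.99 to 4.29), so none was taken for a copy.

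The members and lists were chosen with earlier results of these data known. All members, their paralogues, ATF4, STK11, the 8 most alike genes and up to 4 called genes of smallest p per list and comparison could be named, and some genes that this rule takes are not reported here. CDKN2A and the cell type markers were listed with them. Positions come from GENCODE on GRCh38, and whether the authors used that build is unknown. Alternatives tried: DESeq2 1.42.0, a replicate block, factors by RLE, by upper quartile or none, no low-count filter or a minimum of 30, limma 3.58.1 on log2 of FPKM plus 1 or 0.1 (genes of at least 1 FPKM in 3 libraries, or no filter), a loess correction for gene length, the libraries of a comparison alone, stricter thresholds and leaving out each library.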

Additional observations from a re-analysis of the deposited data

Results flagged for a closer look

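For each of the 10 genes, the AA effect differed between the genotypes when that difference itself was tested (deficient minus intact, edgeR, adjusted over all genes). The log2 differences were 2.97 for ASNS (adjusted p = 9.81e-17), 0.80 for PHGDH (8.13e-12), 1.46 for PSAT1 (1.04e-16), 1.80 for PSPH (7.7e-13), 0.84 for SHMT2 (5.23e-12), 1.03 for MTHFD2 (1.75e-14), 0.71 for MTHFD1L (6.46e-09), 1.94 for ALDH1L2 (2.27e-13), -0.45 for ALDH18A1 (2.54e-08) and 0.42 for PYCR1 (9.07e-06). ASNS, MTHFD1L and ALDH1L2 were called in opposite directions in the genotypes, ASNS not on FPKM, where its fall in intact cells missed the threshold. No cause of these differences was tested.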

How the results depend on the processing

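For the members, 197 of 200 pairs of gene and alternative kept direction and call for AA in deficient cells, 185 of 200 in intact cells, 245 of 250 for the difference, 195 of 200 for the genotypes under AA and 200 of 200 under PBS. No called member changed sign. Requiring a log2 change of at least 1 left 7 higher and 0 lower for AA in deficient cells, 0 in intact cells (0 higher, 0 lower), 5 for the difference and 5 under AA (5 higher and 0 lower in each). The other lost or gained calls were those of ASNS and PYCR1 in intact cells, given with their values above. Among non-members, the intact rise of ATF4 was no longer called with the length trend removed, at a value near 0 (-0.0299, adjusted p = 0.45). On log2(FPKM + 1), all genes called for the difference were 2689 higher and 1768 lower (60.3% higher) against 2747 and 2926 (48.4%), and under AA 60.3% were higher against 48.7%. Under PBS the count of all genes called, 35, ran from 4 to 111 over the settings tried. No scaling moved the median of all genes by over 0.1.

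With the replicate number as a block, the members called stayed at 10, 9, 10, 0 and 10 in the 5 comparisons. Same-numbered libraries did not deviate together (correlations of -0.17 to 0.12), so the numbers were not taken to pair them. Leaving out each library gave 10 for AA in deficient cells, 9 to 10 in intact cells, 10 for the difference, 0 under PBS and 10 under AA. The cause of these shifts was not tested. With 3 libraries a group and no stated cultures, the spread between independent cultures is unknown.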
